A study of Mus musculus with 20 samples.

Results

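Expression of 80 metalloproteinase, TIMP and pappalysin genes was followed across 7 groups of sorted mouse mammary epithelial cells. The set held every gene whose symbol in the platform annotation names an Mmp, Adam, Adamts or Timp gene by number, together with Pappa and Pappa2, and it was 80 of the 19937 genes measured by a probe set with a single symbol. It comprised 22 matrix metalloproteinases (MMPs), 34 ADAMs, 18 ADAMTSs, 4 tissue inhibitors of metalloproteinases (TIMPs) and 2 pappalysins. A gene with several probe sets (4 of the 80) was represented by the one with the highest mean over the 20 arrays. The rule uses gene names and no measured value, but it was set with earlier results of these data known.

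Matrix metalloproteinases, ADAMTSs and many ADAMs are zinc enzymes that cut proteins outside the cell or at its surface. The ADAMs were not split here by whether they are active enzymes. MMPs cut collagens and other matrix proteins, and several ADAMTSs cut the large proteoglycans aggrecan and versican. Some ADAMs release the outer parts of membrane proteins such as EGF-family ligands and Notch receptors. Pappalysins cut insulin-like growth factor binding proteins and so free the growth factors they hold, and TIMPs bind and block many of these enzymes. In the mammary gland these proteins take part in ductal branching and in the remodelling of the gland after lactation.

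The mice were on a mixed FVB/CD-1 background and were either K8-creERT2/PIK3CA H1047R or K8-creERT2 control animals. All were studied 4 weeks after tamoxifen, so the controls also carried the Cre and received the drug. The Cre is driven by the promoter of keratin 8, a luminal keratin. In the mutants it turns on PIK3CA H1047R, an activated form of the PI3K catalytic subunit, and GFP shows which cells express the transgene. Cells without CD45 were sorted as basal (low CD24, no Sca1) or as luminal (high CD24), and the luminal cells were split by Sca1. The groups were mutant basal GFP-positive, mutant basal GFP-negative, control basal, mutant GFP-positive Sca1-positive luminal, control Sca1-positive luminal, mutant GFP-positive Sca1-negative luminal and control Sca1-negative luminal cells. There were 3 arrays for each group except the mutant Sca1-positive luminal group, which had 2 (replicates 1 and 3). Control cells of every gate were collected as GFP-negative. In the basal gate as in the luminal gates, the mutation and the selection of cells with Cre activity therefore cannot be told apart. Each array held amplified RNA of 2000 cells from the pooled glands of 2 to 3 mice in estrus synchrony, and the pools came from 3 sortings.

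Levels are deposited log2 values, on which a difference of 1 is a doubling. They were compared within a gene only. Array medians lay between 3.66 and 3.80. Replicate 2 of GFP-positive mutant basal cells and replicate 2 of control Sca1-positive luminal cells had the lowest weights in limma (0.333 and 0.408, against 0.677 to 1.75 on the other arrays). A gene is called where limma's adjusted p, computed over all 19937 genes, was under 0.05, and "rose" and "fell" name called differences between groups. The basal gate carried its own markers. The mean of 6 basal markers (among them Krt5, Krt14 and Acta2) was 9.59 in GFP-positive mutant, 9.91 in GFP-negative mutant and 9.997 in control basal cells, and between 4.70 and 5.47 in the 4 luminal groups. The mean of 5 luminal markers was 9.02, 8.52 and 8.33 in those basal groups, in the same order, and 10.88 to 11.10 in the luminal groups.

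Across the 7 groups 18 of the 80 members differed (limma F test), which was 22.5%, against 20.7% of all genes. The 18 were Mmp2, Mmp14 and Mmp23 of the MMPs, Adam8, Adam10, Adam15 and Adam19 of the ADAMs, Adamts1, Adamts4, Adamts5, Adamts8, Adamts9, Adamts10 and Adamts18 of the ADAMTSs, Timp1, Timp2, Timp3 and Pappa. By class they made up 3 of 22 MMPs, 4 of 34 ADAMs, 7 of 18 ADAMTSs, 3 of 4 TIMPs and 1 of 2 pappalysins. Of the 7 ADAMTSs classed as aggrecanase-type, 5 differed. The median spread of the 7 group means was 0.29 over all members and 0.43 over all genes. For the 62 members that were not called the spread ran from 0.09 to 1.33, and it was under 1 for 61 of them. The arrays gave no detection calls. For 59 of the 80 members the mean over the arrays lay below 3.86, the median of all gene means.

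**Figure D1:**
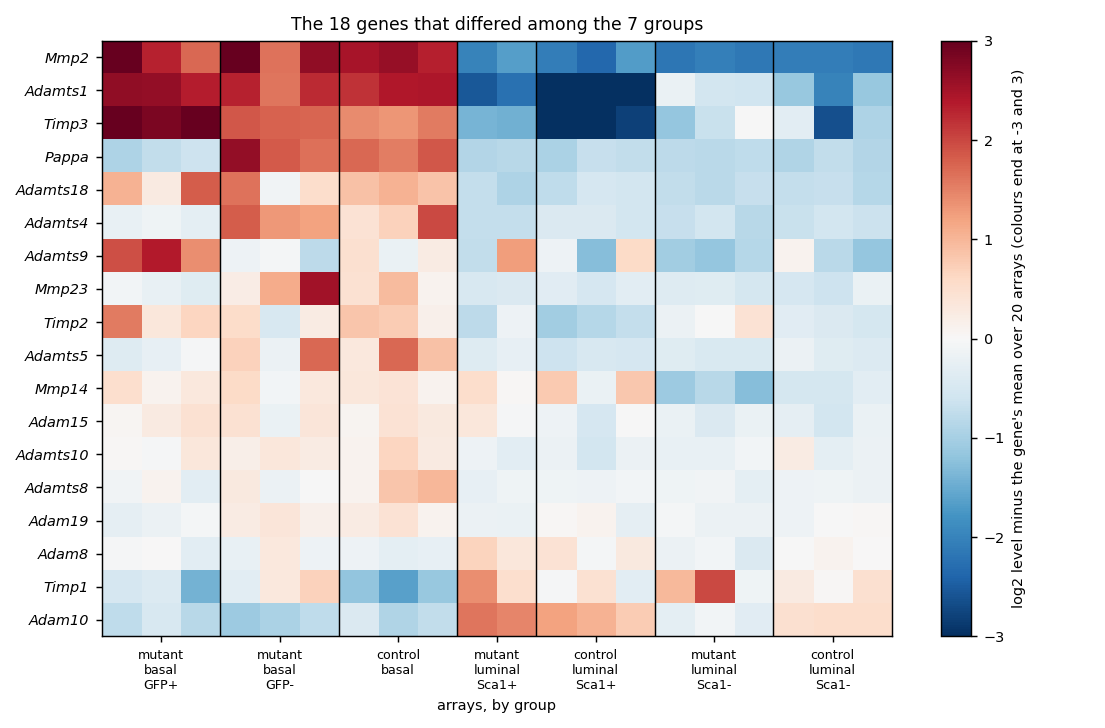
Heat map of the 18 members that differed among the 7 groups: rows are genes, columns are the 20 arrays by group, and colour gives each array's log2 level minus the gene's mean over the 20 arrays (colours end at -3 and 3). Mmp2, Adamts1 and Timp3 are high in all 9 basal arrays, Pappa is high in the GFP-negative mutant and control basal arrays and low in the GFP-positive ones, and Adam10 is high in the luminal Sca1-positive arrays.

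The control groups were compared first, to place each member in the 2 lineages. Control basal cells had more Mmp2, Adamts1, Timp3 and Pappa transcript than either luminal gate, and less Adam10. Against Sca1-positive luminal control cells 12 members were higher and 1 was lower in control basal cells, where 5.94% of all genes were higher and 6.32% lower (12.3% called). Against Sca1-negative luminal control cells 10 were higher and 2 lower, where 4.67% of all genes were higher and 5.22% lower (9.89% called). Arrays of the compared groups were fully apart for 23 and 24 of the 80 members, against 25.1% and 25.9% of all genes. The median difference of the members was 0.02 and 0.07 in these comparisons, against -0.01 and 0.01 over all genes. The 2 comparisons share the control basal arrays.

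Mmp2 encodes gelatinase A, which cuts denatured collagen and type IV collagen. Its level was 8.38, 8.53 and 8.23 in control basal cells, 3.82, 3.55 and 4.24 in control Sca1-positive luminal cells and 3.85, 3.83 and 3.77 in control Sca1-negative luminal cells. All basal arrays were far above all luminal ones. The log2 difference was 4.51 (SE 0.37, adjusted p = 3.94e-07) against Sca1-positive and 4.57 (SE 0.37, adjusted p = 5.21e-07) against Sca1-negative luminal cells. Mmp2 did not follow the mutant: it stood at 9.10, 8.22 and 7.64 in GFP-positive and at 9.39, 7.53 and 8.58 in GFP-negative mutant basal cells, which overlapped the controls (differences of -0.06 and 0.12, adjusted p = 0.966 and 0.969).

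Adamts1 and Timp3 were called in the same order in all 3 control comparisons, with basal cells highest and Sca1-positive luminal cells lowest. Adamts1 is a secreted protease that cuts aggrecan and versican. It was at 9.94, 10.15 and 10.19 in basal cells, 4.41, 3.93 and 4.54 in Sca1-positive luminal cells and 6.63, 5.76 and 6.63 in Sca1-negative luminal cells of controls. No 2 of these groups overlapped. Basal cells were higher by 5.80 (adjusted p = 1.94e-10) than Sca1-positive and by 3.75 (adjusted p = 3.35e-08) than Sca1-negative cells, and Sca1-positive cells were lower than Sca1-negative cells by 2.05 (log2 difference -2.05, SE 0.24, adjusted p = 0.00043). Timp3 encodes the TIMP that stays bound to the matrix and blocks ADAM10, ADAM17 and several ADAMTSs as well as MMPs. It was at 9.66, 9.57 and 9.81 in basal, 4.37, 4.74 and 5.43 in Sca1-positive luminal and 7.92, 5.60 and 7.32 in Sca1-negative luminal control cells. The basal differences were 4.83 (adjusted p = 9.27e-07) and 2.73 (adjusted p = 0.000466). The luminal difference in Timp3 was -2.10 (SE 0.43, adjusted p = 0.0337), and it was lost without any of 4 arrays, control Sca1-negative replicates 1 and 3 and control Sca1-positive replicates 1 and 2 (adjusted p = 0.106 to 0.143). With only the compared arrays in the fit neither luminal difference was called (adjusted p = 0.0706 for Adamts1 and 0.341 for Timp3). No other member was called between the luminal gates of controls: 2 of 80 were lower and 0 higher in Sca1-positive cells, against 0.577% of all genes lower and 0.186% higher (0.762% called). The arrays of these gates did not overlap for 11 members, against 13.3% of all genes.

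The sequences just upstream of these 2 genes are shown because they are the members called alike in every control comparison. Each is the 250 bases before the annotated start in RefSeq (GRCm38.p6), 5′ to 3′ on the gene's strand. Adamts1 is on the minus strand at chr16:85803114-85803363 and Timp3 on the plus strand at chr10:86300162-86300411. Capitals mark matches on either strand to TATAAA, the TATA box core, to GGGCGG, the GC box bound by Sp1-type factors, and to TGANTCA, the AP-1 site.
Adamts1: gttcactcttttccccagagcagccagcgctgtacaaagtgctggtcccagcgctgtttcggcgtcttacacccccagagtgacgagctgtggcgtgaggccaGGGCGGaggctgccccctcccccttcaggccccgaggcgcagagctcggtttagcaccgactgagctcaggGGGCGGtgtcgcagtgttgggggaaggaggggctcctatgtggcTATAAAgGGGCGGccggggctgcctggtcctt
Timp3: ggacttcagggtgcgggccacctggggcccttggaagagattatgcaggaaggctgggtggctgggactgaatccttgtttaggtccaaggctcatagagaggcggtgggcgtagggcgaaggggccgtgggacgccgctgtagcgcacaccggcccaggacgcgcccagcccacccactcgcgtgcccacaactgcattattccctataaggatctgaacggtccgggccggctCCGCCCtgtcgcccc
Both windows were 65.6% G or C, against a median of 52.4% over 32851 RefSeq promoters of the same length. The Adamts1 window held 1 TATAAA, whose first base was 32 bases before the start, and 3 GGGCGG. The Timp3 window held 1 GGGCGG, read on the other strand as CCGCCC, and no TATAAA. Neither held TGANTCA. Over all 32851 promoters 12.4% held TATAAA, 32.7% GGGCGG and 6.75% TGANTCA, and these letters are a description, not a record of binding. Of the 80 members, 49 had a promoter entry.

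Further ADAMTS genes were higher in control basal cells. Adamts18, a secreted ADAMTS, was at 5.44, 5.60 and 5.40 in control basal cells and between 3.62 and 4.04 on all 11 luminal arrays. Its differences were 1.53 (adjusted p = 0.00811) against Sca1-positive and 1.68 (adjusted p = 0.00483) against Sca1-negative luminal control cells. Adamts4 and Adamts5 encode the main aggrecan-cutting enzymes of cartilage. Adamts4 was higher by 1.50 (adjusted p = 0.00119) and 1.65 (adjusted p = 0.000658), Adamts5 by 1.50 (adjusted p = 0.0103) and 1.29 (adjusted p = 0.0311), and Adamts8, also aggrecanase-type, by 0.77 (adjusted p = 0.00913) and 0.79 (adjusted p = 0.00855), each against Sca1-positive and then Sca1-negative cells. Adamts10, which binds fibrillin microfibrils, was higher by 0.64 against Sca1-positive cells (adjusted p = 0.0136), as were Adamts14, a procollagen-trimming enzyme, by 0.29 (adjusted p = 0.016) and the membrane-type Mmp24 by 0.30 (adjusted p = 0.0179). Adam15 was higher by 0.61 against Sca1-negative cells (adjusted p = 0.0443). Adamts14 was removed by the filter on dim genes, and several of these calls rested on single arrays. Against Sca1-positive cells Adamts5, Adamts10, Adamts14 and Mmp24 were lost without control basal replicate 2 (adjusted p = 0.0572, 0.0737, 0.0704 and 0.0622), and Adamts8 and Mmp24 without control basal replicate 3 (adjusted p = 0.0513 and 0.0667). Adamts14 was also lost without control Sca1-positive replicate 1, and Adamts10 and Mmp24 without replicate 2 of that group (adjusted p = 0.0649, 0.0691 and 0.0505). Against Sca1-negative cells Adamts5 and Adam15 were lost without control basal replicate 2 or 3 or any Sca1-negative replicate (adjusted p = 0.0622 to 0.153 and 0.0606 to 0.181). With only the compared arrays in the fit Adamts4 and Adamts8 were called in neither comparison (adjusted p = 0.0669 to 0.121).

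Adam10 ran the other way. It encodes the alpha-secretase sheddase that cuts Notch receptors, E-cadherin and several EGF-family ligands. Its level was 6.70, 6.25 and 6.41 in control basal cells, 8.36, 8.19 and 7.90 in control Sca1-positive luminal cells and 7.62, 7.66 and 7.66 in control Sca1-negative luminal cells. Control basal cells were lower by 1.69 than Sca1-positive cells (log2 difference -1.69, SE 0.14, adjusted p = 3.65e-07) and by 1.19 than Sca1-negative cells (log2 difference -1.19, SE 0.14, adjusted p = 2.15e-05). Timp1, a soluble TIMP, was at 3.92, 3.48 and 3.98 in control basal and 5.38, 5.15 and 5.60 in control Sca1-negative luminal cells. The Timp1 difference of -1.58 (adjusted p = 0.0287) was lost without any of the 6 arrays (adjusted p = 0.0527 to 0.106), and that against Sca1-positive cells was -1.36 (adjusted p = 0.055). Timp2 encodes a TIMP that also takes part in activating proMMP2 at the cell surface. It was higher in control basal cells by 1.45 against Sca1-positive (adjusted p = 0.00425) and by 1.02 against Sca1-negative cells (adjusted p = 0.0462), and the second call was lost without any of 5 of the 6 arrays (control basal replicates 1 and 2 and each Sca1-negative replicate, adjusted p = 0.0881 to 0.149).

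**Figure D2:**
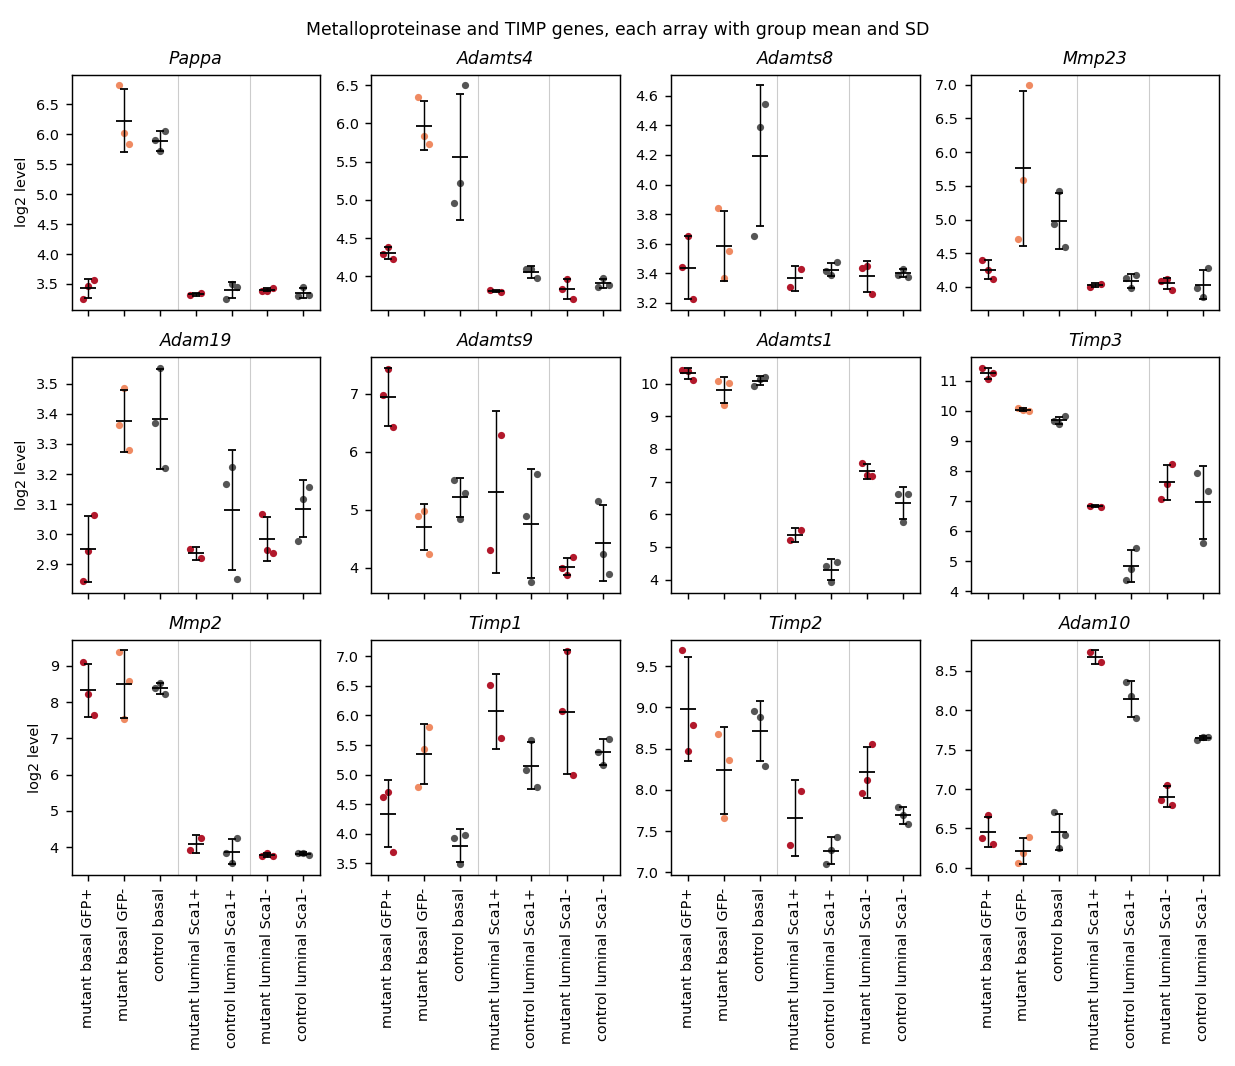
Log2 level of 12 members on each array, with the group mean and SD as bars, in 7 groups from mutant basal GFP-positive to control luminal Sca1-negative (3 arrays each, 2 for mutant luminal Sca1-positive). Pappa is at 3.25 to 3.57 in GFP-positive mutant basal cells and at 5.72 to 6.82 in the 2 other basal groups, and Adamts1, Timp3 and Mmp2 separate the basal from the luminal arrays.

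The main basal comparison asked how transgene-expressing cells of the basal gate differed from control basal cells. Pappa was lower by a log2 difference of -2.46, and Adamts4, Adamts8 and Adam19 were also lower. No member was called higher. These were 4 of 80 members lower and 0 higher, against 1.91% of all genes lower and 2.32% higher (4.23% called). The median difference of the 80 members was -0.01, against -0.03 over all genes, and the arrays did not overlap for 18 members, against 18.6% of all genes. GFP-positive cells set against GFP-negative cells of the same mutants gave 4 members lower (Pappa, Adamts4, Mmp23 and Adam19) and 1 higher (Adamts9), against 1.2% of all genes lower and 2.05% higher (3.25% called). Here the arrays did not overlap for 13 members, against 15% of all genes. Both comparisons use the GFP-positive arrays, so both also carry the selection of cells with Cre activity. GFP-negative mutant basal cells set against control basal cells gave 0 of 80 members in limma, with 4 at an unadjusted p under 0.05. Of all genes 0.0953% were higher and 0.0652% lower (0.161% called), and the arrays did not overlap for 8 members, against 13.7% of all genes.

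Some luminal and secretory genes were higher in the GFP-positive basal cells. Against control basal cells 2 of 6 basal markers were lower (Oxtr and Myh11, log2 differences -1.84 and -0.70) and 2 of 5 luminal markers higher (Krt19 by 1.48 and Krt18 by 1.01). Of 5 progenitor and secretory markers of Sca1-negative luminal cells, the secretory genes Csn2, Wap and Elf5 were higher by 5.18, 2.98 and 1.84. Kit and Aldh1a3, the others, are not given here, and the list's mean was 6.41 in GFP-positive and 4.28 in control basal cells. The part of these shifts in the differences of the members was not tested.

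Pappa encodes pappalysin 1 (PAPP-A), a secreted metalloproteinase that cuts IGF binding protein 4 and related proteins. Its level was 3.25, 3.46 and 3.57 in GFP-positive mutant basal cells, 6.82, 6.03 and 5.83 in GFP-negative mutant basal cells and 5.90, 5.72 and 6.05 in control basal cells. The GFP-positive arrays did not overlap either of the other groups, which overlapped each other. The difference was -2.46 (SE 0.18, adjusted p = 6e-07) against control and -2.80 (SE 0.18, adjusted p = 1.73e-07) against GFP-negative basal cells, and it was called under each of the 14 alternatives in both. GFP-negative and control basal cells differed by 0.34 (SE 0.18, adjusted p = 0.592). All luminal arrays lay between 3.24 and 3.50, with no call between mutant and control. In a comparison chosen after seeing the data, GFP-positive mutant basal cells differed from mutant luminal cells by 0.10 (SE 0.20) in the Sca1-positive gate and by 0.02 (SE 0.18) in the Sca1-negative gate. The GFP-positive and luminal levels lay below 3.86, the median of all gene means, and the arrays give no background level, so the differences may understate the change. In bulk arrays a lower level in each cell and fewer cells with the transcript cannot be told apart. Pappa2, the second pappalysin, was between 3.26 and 3.65 on every array and was called nowhere.

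Adamts4 was at 4.29, 4.39 and 4.23 in GFP-positive, 6.34, 5.84 and 5.74 in GFP-negative and 4.95, 5.22 and 6.50 in control basal cells. All GFP-positive arrays lay below those of both other groups. The difference was -1.25 against control (SE 0.27, adjusted p = 0.0137) and -1.67 against GFP-negative cells (SE 0.27, adjusted p = 0.00194). Without control basal replicate 3, the highest of its group, the first was -0.78 and was still called (adjusted p = 0.00783). With only the compared arrays in the fit it was not called (adjusted p = 0.254), nor were Adamts8 and Adam19 (adjusted p = 0.295 and 0.229). Adamts8 was at 3.44, 3.65 and 3.22 in GFP-positive and 3.65, 4.39 and 4.54 in control basal cells, with 3.84, 3.37 and 3.55 in GFP-negative cells. Adamts8 differed by -0.76 from control (SE 0.18, adjusted p = 0.0251) and by -0.15 from GFP-negative cells (adjusted p = 0.839). The Adamts8 call was lost without control basal replicate 2 or 3 or GFP-positive replicate 1 or 3 (adjusted p = 0.0961, 0.11, 0.0707 and 0.106). GFP-negative cells differed from control in Adamts8 by -0.61, which was not called (adjusted p = 0.248). Without control basal replicate 1 that difference was -0.88 and was called (adjusted p = 0.0288).

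Endothelial markers were examined beside these 2 genes. The mean of 6 endothelial markers was 3.40 to 3.54 in GFP-positive, 3.47 to 3.74 in GFP-negative and 3.57 to 4.15 in control basal cells. Its highest value was in control basal replicate 3, the array with the highest Adamts4 (6.50) and Adamts8 (4.54). Of the 6 markers Cdh5 was called in GFP-positive against control basal cells (-0.99, adjusted p = 0.0345), at 3.30, 3.52 and 3.31 against 4.01, 3.89 and 5.19. Of the others, Kdr, Tie1, Emcn and Vwf were between 3.15 and 4.05 in the group means of these 3 groups, and Pecam1 is not given here. Adamts4 averaged 5.97 in GFP-negative and 5.56 in control basal cells, and the list averaged 3.60 and 3.82 in the same groups. The part of endothelial cells in the Adamts4, Adamts8 and Pappa differences was not tested. For Pappa the difference from control stayed between -2.55 and -2.38 without any 1 array. Leaving out single arrays does not bear on endothelial cells.

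Adamts5 showed a like order with wider scatter. It was at 3.20, 3.34 and 3.56 in GFP-positive, 4.28, 3.41 and 5.31 in GFP-negative and 3.91, 5.30 and 4.46 in control basal cells. The difference of -1.19 from control was not called (SE 0.36, adjusted p = 0.0815), although it was without control basal replicate 1 (-1.51, adjusted p = 0.0341). Mmp23 encodes a membrane-anchored MMP without the usual inhibitory switch. It was at 4.40, 4.25 and 4.12 in GFP-positive and 4.71, 5.58 and 6.99 in GFP-negative mutant basal cells, with 4.93, 5.42 and 4.59 in control basal cells. Mmp23 differed by -1.51 from GFP-negative cells (SE 0.37, adjusted p = 0.0382) and by -0.72 from control cells (adjusted p = 0.37). The first call was lost without any of 5 of the 6 arrays (all but GFP-negative replicate 1, adjusted p = 0.0595 to 0.116) and with only the compared arrays (adjusted p = 0.42), and without GFP-negative replicate 3 the value was -0.89. Adam19, a sheddase of neuregulin, was at 2.85, 2.94 and 3.06 in GFP-positive, 3.36, 3.48 and 3.28 in GFP-negative and 3.37, 3.55 and 3.22 in control basal cells. This was a dim gene, removed by the filter on dim genes. Its differences were -0.43 in both comparisons (adjusted p = 0.0352 against control and 0.045 against GFP-negative cells). They were lost without control replicate 1 or 2 or GFP-positive replicate 1 or 2 in the first, and without any 1 of the 6 arrays in the second (adjusted p = 0.0781 to 0.135 and 0.0531 to 0.163).

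Adamts9, a versican-cutting ADAMTS, was the member that rose. It was at 6.98, 7.43 and 6.43 in GFP-positive and 4.89, 4.98 and 4.25 in GFP-negative mutant basal cells, with 5.52, 4.85 and 5.29 in control basal cells. The GFP-positive arrays lay above all others of the gate. The difference was 2.25 from GFP-negative cells (SE 0.50, adjusted p = 0.0199) and 1.73 from control cells (SE 0.50, adjusted p = 0.0654). The first was lost without GFP-negative replicate 3 or GFP-positive replicate 1 or 2 (adjusted p = 0.0724, 0.0601 and 0.0816). Adamts9 had 6 probe sets, and they disagreed in size: the 5 not used gave 0.09 to 1.35 for GFP-positive against GFP-negative cells, none called, and the mean of all 6 gave 0.94 (adjusted p = 0.00785).

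**Figure D3:**
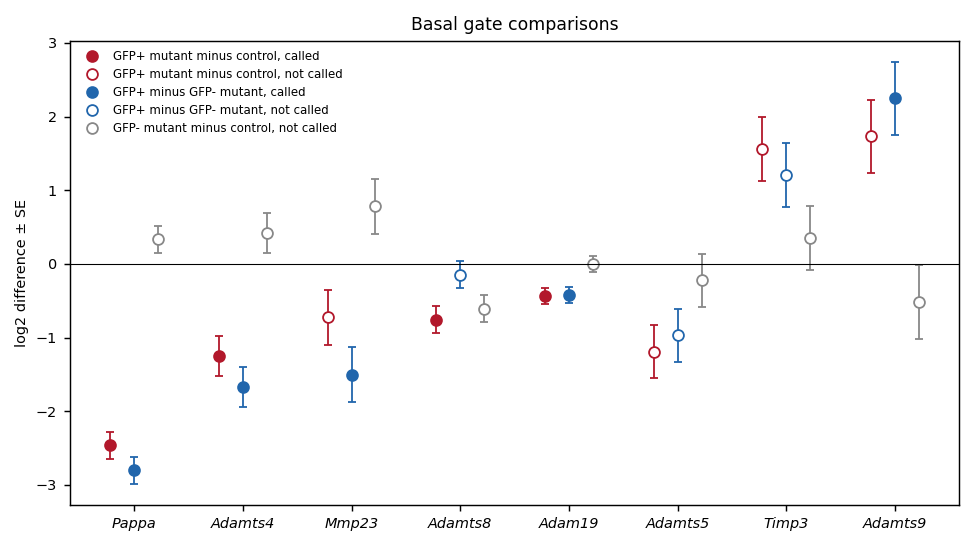
Log2 difference with its SE for 8 members in the 3 basal comparisons (red, GFP-positive mutant minus control; blue, GFP-positive minus GFP-negative mutant; grey, GFP-negative mutant minus control), with filled points for called differences. Pappa is lowest at -2.46 and -2.80, Adamts9 highest at 1.73 and 2.25, and no grey point is filled.

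The TIMPs of the basal gate were not called in any of the 3 basal comparisons. Timp3 was nonetheless above every other basal array in GFP-positive cells, at 11.43, 11.05 and 11.24, against 10.09, 10.01 and 9.99 in GFP-negative and 9.66, 9.57 and 9.81 in control basal cells. The difference of 1.56 from control had an SE of 0.43 and an adjusted p of 0.0561, and it was called under 4 of the 8 other settings. It was not called when any 1 of the 6 arrays was left out (adjusted p = 0.0953 to 0.156). The within-group SD in the fit is shared with the luminal groups, where Timp3 scattered most (5.60 to 7.92 in control Sca1-negative cells). With only the compared arrays the adjusted p was 0.00597. Timp2 was at 9.69, 8.47 and 8.78 in GFP-positive and 8.96, 8.89 and 8.29 in control basal cells (0.27, adjusted p = 0.753). Timp1 was at 4.79, 5.44 and 5.80 in GFP-negative and 3.92, 3.48 and 3.98 in control basal cells, a difference of 1.55 that was not called (adjusted p = 0.212). Timp4 was between 3.63 and 3.98 on every array.

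In the luminal gates the mutant comparisons called almost no member. In the Sca1-positive gate 0 of 80 were called in limma, with 6 at an unadjusted p under 0.05. Of all genes 0.181% were higher and 0.0451% lower (0.226% called), and the arrays did not overlap for 28 members, against 28.6% of all genes. In the Sca1-negative gate Adam10 fell and no other member was called. This was 1 of 80 lower and 0 higher, against 0.682% of all genes lower and 1.21% higher (1.9% called), and the arrays did not overlap for 17 members, against 22.6% of all genes. Adam10 was at 6.86, 7.05 and 6.80 in mutant and 7.62, 7.66 and 7.66 in control Sca1-negative luminal cells. All mutant arrays lay below all controls, by 0.75 on average (log2 difference -0.75, SE 0.14, adjusted p = 0.00858), and the call held under all 14 alternatives. In the Sca1-positive gate Adam10 was at 8.74 and 8.62 in mutant and 8.36, 8.19 and 7.90 in control cells, a difference of 0.53 that was not called (SE 0.16, adjusted p = 0.258). The mutant effect on Adam10 differed between the 2 luminal gates by 1.28 (SE 0.21, adjusted p = 0.0184). This interaction was lost without either mutant Sca1-positive array (adjusted p = 0.0685 without replicate 1 and 0.066 without replicate 3). In the same Sca1-negative comparison the hormone-sensing markers Pgr, Foxa1 and Esr1 differed by -2.65, -2.11 and -1.32 and the secretory markers Elf5 and Wap by 2.23 and 4.85, all called. Elf5 and Wap are from a list of 5 progenitor and secretory markers, whose mean was 8.77 in mutant and 6.65 in control cells. The part of a shift in cell makeup in the Adam10 value was not tested.

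Adam17 encodes TACE, the sheddase of TNF and of amphiregulin. It was at 5.99, 6.14 and 6.01 in mutant and 5.09, 5.80 and 5.99 in control Sca1-negative luminal cells (0.42, adjusted p = 0.68). Adam17 was called in none of the comparisons, with differences from 0.41 to 0.57 in the 3 GFP-positive groups against their controls. Adamts1 was at 7.56, 7.21 and 7.16 in mutant and 6.63, 5.76 and 6.63 in control Sca1-negative luminal cells. The groups did not overlap, and the difference of 0.97 was not called (SE 0.24, adjusted p = 0.0523). It was called with a filter on dim genes, with array weights and with the replicate block (adjusted p = 0.0348, 0.0117 and 0.027). With any 1 of the 6 arrays left out it was not called (adjusted p = 0.0562 to 0.215). In Sca1-positive cells Adamts1 was at 5.22 and 5.53 in mutant and 4.41, 3.93 and 4.54 in control cells (1.08, adjusted p = 0.155). Timp3 in that gate was at 6.84 and 6.80 in mutant and 4.37, 4.74 and 5.43 in control cells, again without overlap and not called (1.98, SE 0.48, adjusted p = 0.143). Mmp14, the membrane-type MMP that activates proMMP2, was at 6.43, 6.69 and 6.24 in mutant and 6.99, 7.003 and 7.21 in control Sca1-negative luminal cells (-0.61, SE 0.24, adjusted p = 0.306).

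The interactions tested whether the difference of GFP-positive mutant from control cells, called the mutant effect here, differed between gates. Pappa was the member called between the basal gate and each luminal gate. Its mutant effect was lower in the basal gate, by an interaction of -2.40 with the Sca1-positive gate (SE 0.27, adjusted p = 0.000216) and of -2.52 with the Sca1-negative gate (SE 0.26, adjusted p = 6.84e-05). With the Sca1-positive gate 1 of 80 members had a lower effect and 0 a higher one, against 0.512% of all genes lower and 0.582% higher (1.09% called). With the Sca1-negative gate the counts were again 1 and 0, against 0.617% lower and 0.938% higher (1.55% called). Between the luminal gates Adam10 was the 1 member with a higher effect, against 0.11% of all genes higher and 0.0301% lower (0.14% called). Pappa was at 3.24 to 3.50 on the luminal control arrays, below the median of all gene means, where a fall might not be measurable. The Pappa interactions therefore restate the basal difference and do not show that the mutant effect is particular to the basal gate. The log2 differences behind them were -2.46 in the basal gate, -0.07 in the Sca1-positive gate and 0.05 in the Sca1-negative gate.

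**Figure D4:**
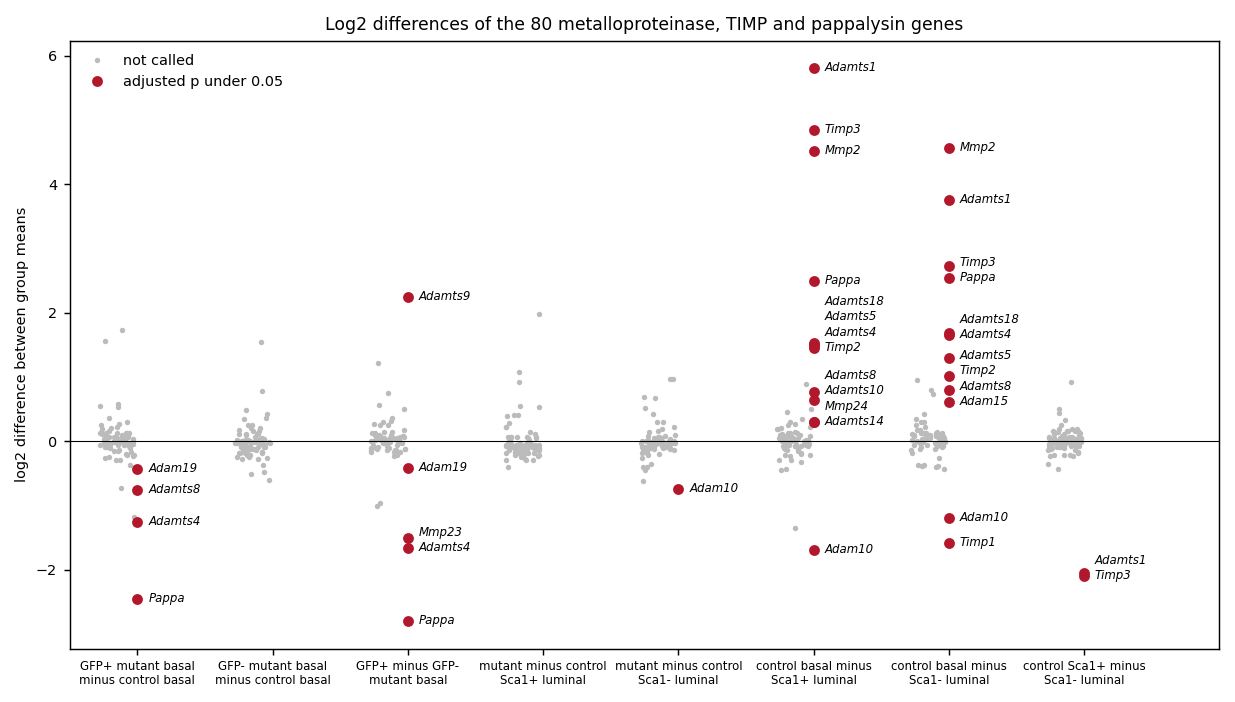
Log2 difference of each of the 80 members in 8 comparisons, with called members as labelled red points and the others in grey. The mutant comparisons of the luminal gates hold 1 called member, Adam10 at -0.75, while the comparisons of control basal with luminal cells hold 13 and 12, up to Adamts1 at 5.80.

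Within mutants, GFP-positive basal cells were also set against luminal cells, in 2 comparisons chosen after seeing the data. Against Sca1-positive cells 5 members were higher and 3 lower, where 4.49% of all genes were higher and 6.16% lower (10.7% called). Against Sca1-negative cells 7 were higher and 1 lower, where 4.43% of all genes were higher and 5.16% lower (9.59% called). The arrays did not overlap for 31 and 21 members, against 37.2% and 25.2% of all genes. Adamts1, Timp3, Mmp2 and Adamts18 were higher in basal cells in both, by 4.94, 4.42, 4.23 and 1.87 against Sca1-positive and by 3.00, 3.61, 4.53 and 1.79 against Sca1-negative cells. Timp2 was also higher against Sca1-positive cells, by 1.32, and Timp1 was lower by 1.74 and 1.72 (log2 differences -1.74 and -1.72). Adam10 was lower against Sca1-positive cells (log2 difference -2.22, adjusted p = 8.56e-08), as was Adam8 (-0.60, adjusted p = 0.0356). Against Sca1-negative cells Mmp14 was higher by 1.38 (adjusted p = 0.00115), Adamts9 by 2.93 (adjusted p = 0.000921) and Adam22, which the filter on dim genes removed, by 0.34 (adjusted p = 0.0377). Against Sca1-positive cells Timp1, Timp2 and Adam8 were lost without mutant Sca1-positive replicate 1 (adjusted p = 0.314, 0.245 and 0.348), Timp2 and Adam8 without GFP-positive basal replicate 1 (adjusted p = 0.0719 and 0.0554), Timp1 and Adam8 without GFP-positive basal replicate 3 (adjusted p = 0.105 and 0.113) and Adamts18 without mutant Sca1-positive replicate 3 (adjusted p = 0.0584). Against Sca1-negative cells Timp1 was lost without GFP-positive basal replicate 3 or mutant Sca1-negative replicate 1 or 2 (adjusted p = 0.056 to 0.0962), and Adam22 without any array but GFP-positive basal replicate 3 (adjusted p = 0.058 to 0.168). Pappa, Adamts4, Adamts5 and Adamts8 were called between control basal and luminal cells, and between GFP-positive basal and luminal cells of mutants their differences were 0.02 to 0.49 with none called.

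Most other members stayed within a narrow band. Mmp3, stromelysin 1, was between 2.84 and 3.33 on every array, and Mmp9, gelatinase B, between 3.18 and 3.71. Adam9 was at 6.51, 6.16 and 6.30 in GFP-positive, 6.08, 5.80 and 5.40 in GFP-negative and 6.21, 6.15 and 6.04 in control basal cells, and was called nowhere. Adamts17 was between 5.47 and 6.32 on every array. Of the 62 members that were not called across groups, Adamts3 had the widest group means, from 4.41 in control basal to 5.74 in mutant Sca1-negative luminal cells (4.78 in their controls, difference 0.96, adjusted p = 0.387).

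Of 8 other genes of the pappalysin axis, 3 rose and 1 fell in GFP-positive against control basal cells, and the same counts held against GFP-negative cells. The shares of all genes were 2.32% higher and 1.91% lower against control, and 2.05% higher and 1.2% lower against GFP-negative cells. Stc1, Stc2, Igf1 and Igf2 were called in neither. Igf1r, the IGF1 receptor, was at 4.03, 3.73 and 3.98 in GFP-positive, 5.97, 6.37 and 6.27 in GFP-negative and 6.0001, 5.84 and 6.57 in control basal cells. The GFP-positive arrays stood apart, by -2.22 from control (SE 0.16, adjusted p = 3.48e-07) and by -2.29 from GFP-negative cells. Igfbp4, the best known PAPP-A substrate, rose by 2.04 against control (adjusted p = 0.00565), at 7.73, 7.68 and 7.65 against 4.97, 6.53 and 5.44. Igfbp5 rose by 1.21 (adjusted p = 0.0114) and Igfbp2 by 1.01 (adjusted p = 0.0102). Stc2 encodes stanniocalcin 2, an inhibitor of PAPP-A. It was not called in the basal gate (0.43, adjusted p = 0.434), and in mutant Sca1-negative luminal cells it was at 6.53, 6.36 and 6.61, against 8.93, 8.98 and 8.88 in controls (-2.43, SE 0.25, adjusted p = 5.14e-05). In Sca1-positive luminal cells Igfbp5 was higher in mutants by 2.22 (adjusted p = 0.002) and Stc2 differed by -0.01.

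Among 14 measured substrates of these enzymes, 5 rose and 2 fell in GFP-positive against control basal cells, and 3 rose and 1 fell against GFP-negative cells. Of all genes 2.32% rose and 1.91% fell in the first comparison, and 2.05% and 1.2% in the second. Vcan, the proteoglycan versican cut by several ADAMTSs, was at 10.88, 10.71 and 10.90 in GFP-positive, 7.01, 6.15 and 7.98 in GFP-negative and 7.05, 7.97 and 7.13 in control basal cells. Vcan rose by 3.44 against control (SE 0.33, adjusted p = 9.35e-06) and by 3.78 against GFP-negative cells (adjusted p = 3.77e-06). Notch1 rose by 1.63, Sdc1 (syndecan 1) by 1.60 and Ereg (epiregulin, an EGF-family ligand) by 1.56 against control. The 2 that fell against control were Sdc4 (syndecan 4) and Fn1 (fibronectin), with log2 differences of -0.77 and -0.57. No substrate was called between mutant and control cells of either luminal gate. Fibroblast markers were examined beside these values: of 8, Dcn and Col1a2 were higher in GFP-positive than in control basal cells, by 3.15 and 0.88. The list's mean was 4.44 to 4.61 in GFP-positive, 4.09 to 4.17 in GFP-negative and 3.99 to 4.10 in control basal cells. The other 6, Col1a1, Col3a1, Lum, Pdgfra, Dpt and Fap, were not called. Dcn averaged 10.58 in GFP-positive basal cells and between 10.48 and 11.20 in 3 of the 4 luminal groups. The value of Dcn in the other luminal group is not given here. The mean of the 8 fibroblast markers ran from 3.97 in mutant Sca1-negative to 4.48 in control Sca1-positive luminal cells. Of 7 measured genes of macrophages and other immune cells none was called between mutant and control cells. Of 5 pericyte markers Cspg4 was higher by 0.72 (adjusted p = 0.0319), and of 6 neutrophil genes S100a8 by 4.74 while Ly6g, S100a9, Elane, Mpo and Cxcr2 were not called. The part of such cells in the differences was not tested.

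Activators and inhibitors of the enzymes numbered 21 measured genes. Of these Plat and Thbs2 were called in GFP-positive basal cells, where 4.23% of all genes were called against control and 3.25% against GFP-negative cells. Plat, tissue plasminogen activator, was at 5.68, 4.78 and 5.94 in GFP-positive, 7.49, 6.75 and 6.95 in GFP-negative and 7.30, 7.57 and 8.16 in control basal cells, and its difference from control was -2.21 (SE 0.31, adjusted p = 0.000477). Thbs2, thrombospondin 2, which binds MMP2, was higher than control by 1.003 (SE 0.10, adjusted p = 1.89e-05). Tspan33, a tetraspanin that accompanies ADAM10, rose by 0.86 in mutant Sca1-negative luminal cells (adjusted p = 0.0241). In control basal cells Plat was higher by 3.08 and 3.07 and Lrp1, an endocytic receptor for these enzymes, by 2.55 and 2.60 than in Sca1-positive and Sca1-negative luminal cells, while Plaur, the urokinase receptor, was lower (log2 differences -3.08 and -3.15). Among 17 related metalloproteinase and ADAMTS-like genes, Mme (neprilysin, also known as CD10) was higher in control basal cells by 5.49 and 3.62. Only 1 of the 17, Adamtsl4, was called in any mutant comparison (-0.47 in Sca1-negative luminal cells, adjusted p = 0.0158). Of all genes 0.161% to 4.23% were called in the single mutant comparisons, and 1.9% in that of the Sca1-negative luminal gate.

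**Figure D5:**
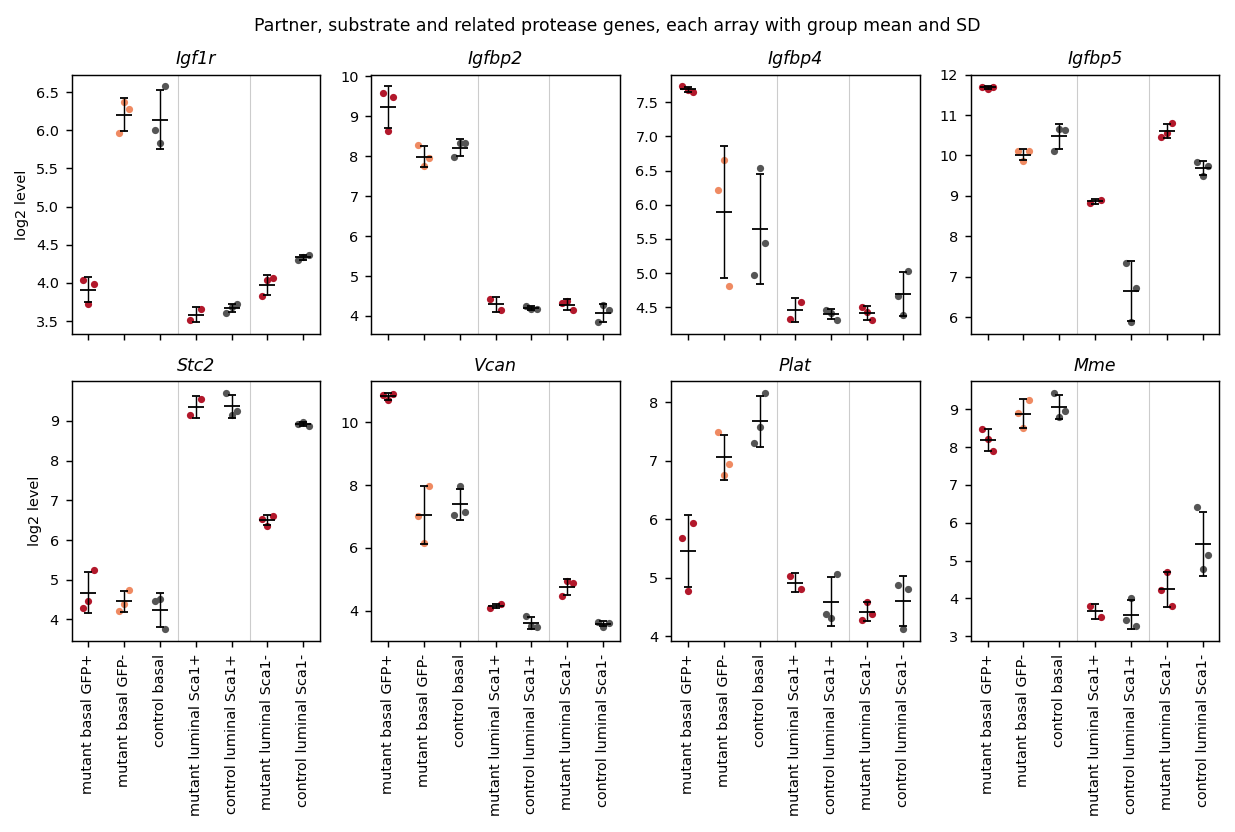
Log2 level of 8 partner, substrate and related genes on each array, with group mean and SD, in the same 7 groups. Igf1r is at 3.73 to 4.03 in GFP-positive mutant basal cells and at 5.84 to 6.57 in the other basal groups, Vcan is at 10.71 to 10.90 against 6.15 to 7.98, and Stc2 is lower in mutant than in control Sca1-negative luminal cells.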

How the data were processed

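Expression was measured on 20 Affymetrix arrays, 1 per sorted pool, in 7 groups. The deposited values are log2 probe set levels, a unit read from the values (1.98 to 13.07). The submitters' processing notes name affy without a version, and the normalization and build behind the values are not given in the sources used here. Of 34760 probe sets, 21640 had 1 symbol, 1321 several (left out) and 11799 were not listed in the platform's table. RefSeq (GRCm38.p6) held 21553 of them and changed 0 symbols. The 19937 genes were fitted with limma 3.58.1 in R 4.3.3 as 7 group means over all arrays, with Benjamini-Hochberg adjustment per comparison and a threshold of 0.05. P-values measure the spread between sorted pools, and gates of 1 genotype can share pools. In simulated data (19937 genes, 200 changed, Sca1-negative luminal comparison) 75 of 100 genes changed by 1 and 95 of 100 changed by 2 on the log2 scale were called, with 8 false calls. Members, companion and marker lists were chosen with earlier results of these data known. Named genes were members called in a mutant comparison or interaction, up to 12 called members per control comparison, Pappa, Pappa2, the TIMPs, Adam10, Adam17, Mmp2, Mmp3, Mmp9, Mmp14, the 8 members with the highest mean, and up to 4 called genes per companion list and comparison. Adamts3, Adamts14, Sdc4, Fn1, the uncalled pappalysin axis genes, Adamts5 in the mutant comparisons and the genes of the added comparisons were named after their values were seen. Array number limits precision. Alternatives were another probe set rule, a filter on dim genes, array weights, a replicate block, pools as a random block, quantile normalization, only the compared arrays, eBayes with trend and robust, and each array left out.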

Additional observations from a re-analysis of the deposited data

Results flagged for a closer look

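The interaction of mutation and gate was called for 2 members. For Pappa the difference between gates was -2.52 (basal minus Sca1-negative luminal) and -2.40 (basal minus Sca1-positive luminal) on the log2 scale. For Adam10 it was 1.28 (Sca1-positive minus Sca1-negative luminal). Pappa was already below the median of all gene means in luminal controls, so these values restate its basal difference and do not show a smaller mutant effect in luminal cells. The Pappa interactions were called under every alternative, with values from -2.60 to -2.43 and from -2.48 to -2.31 when single arrays were left out. The Adam10 interaction ran from 1.15 to 1.38 when single arrays were left out, and its adjusted p reached 0.101 (quantile normalization).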

How the results depend on the processing

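Of 56 called differences of single members, 29 were called under every alternative and 27 were lost under at least 1, and none changed sign. The number of called members changed as follows. In mutant against control Sca1-negative luminal cells it was 2 in place of 1 with the filter on dim genes, with array weights and with the replicate block. In GFP-positive mutant against control basal cells it was 2 with only the compared arrays and 7 with trend and robust (main 4), and 2 to 4 with 1 array left out. GFP-negative mutant against control basal cells gave 0 to 1 (main 0). GFP-positive against GFP-negative basal cells gave 3 with array weights and 2 to 4 with 1 array left out (main 5). Control Sca1-positive against Sca1-negative luminal cells gave 0 with only the compared arrays and 1 to 2 with 1 array left out (main 2). GFP-positive basal against mutant Sca1-positive luminal cells gave 4 with only the compared arrays and 5 to 9 with 1 array left out (main 8). For the remaining counts the first range is with 1 array left out and the second under the other settings. Control basal cells gave 8 to 11 and 9 to 13 against Sca1-negative (main 12), and 9 to 13 and 9 to 14 against Sca1-positive luminal cells (main 13). GFP-positive basal against mutant Sca1-negative luminal cells gave 6 to 9 and 7 to 12 (main 8). The F test across the 7 groups gave 14 to 18 and 17 to 21 (main 18). The interactions of the basal gate gave 1 to 3 (Sca1-negative) and 1 to 2 (Sca1-positive), and that between luminal gates 0 with quantile normalization, 0 with trend and robust and 0 to 1 with 1 array left out (main 1 each). The cause of these changes was not tested, beyond fewer arrays in those fits. Same-numbered arrays deviated together by correlations of -0.05 to 0.13. Whether arrays of the same number came from the same pool of mice is not stated, and these correlations cannot decide it. The replicate block gave 5 members against 4 for GFP-positive against control basal cells. It gave 4 against 5 for GFP-positive against GFP-negative cells. Over all genes, called numbers ran from 248 to 819 for mutant against control Sca1-negative luminal cells (main 378), 12 to 75 for the Sca1-positive gate (45), 276 to 893 for GFP-positive against control basal cells (843), 0 to 63 for GFP-negative against control (32), 134 to 731 for GFP-positive against GFP-negative cells (648), 43 to 231 between control luminal gates (152), 1322 to 2556 for GFP-positive basal against mutant Sca1-positive luminal cells (2125), 117 to 275 for the interaction of the basal with the Sca1-positive gate (218) and 20 to 72 between the luminal gates (28). The arrays carry no background measure here. The filter on dim genes kept 26 of the 80 members, and for the others a difference that was not called means not detectable on 2 to 3 arrays a group.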
